A study of Mus musculus with 6 samples.

Results

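Mitotic genes are low both in muscle precursor cells left to differentiate and in such cells kept in growth medium with the drug BTZ, and the RNA that separated these states is described here. The study held 6 arrays, of which 2 are compared. One came from cells moved from 10% fetal bovine serum (FBS) into 2% differentiation medium and harvested untreated on day 5. The other came from cells kept in 10% FBS and given BTZ at 10 nM for 24 h. Both are C2C12 cells, mouse myoblasts grown as an immortal line, which proliferate in abundant serum and, once serum is withdrawn, fuse to myotubes with many nuclei. BTZ is not written out in the labels; the abbreviation is commonly used for bortezomib, a drug that blocks the proteasome. The other groups were untreated cells in 10% FBS, cells in each medium with TNF-α at 50 ng/ml, and cells in differentiation medium given BTZ at 10 nM on day 4, with harvest on day 5. The 2 members were chosen by their labels, and each gene was compared as the log2 value in untreated differentiation medium minus that in 10% FBS with BTZ. A positive difference therefore means a higher level in differentiation medium.

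Each group was 1 array, so no difference has an error or a test, and every gene value below is a single reading. Medium, time in culture and drug all differ between the 2 arrays and cannot be told apart as sources of a difference. In bulk RNA, fewer cells of a type and less RNA per cell cannot be told apart either. Cell division and protein were not measured, so only RNA levels speak to how far either state had left the cell cycle. Probe sets with 1 gene symbol were averaged per gene, and genes were kept if at least 1 array reached the floor of 5.06, the median of all values, which left 13652 of 22180 genes. The 2 arrays had medians of 5.07 and 5.11 over all probe sets. All 6 arrays lay between 5.01 and 5.11.

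Myoblasts and myotubes differ in a switch that is well known from muscle biology. MyoD and myogenin, which are E-box binding transcription factors, act with MEF2 to turn on the contractile genes, while the CDK inhibitor p21 helps to hold the cells out of the cell cycle for good. Proteasome inhibition is known for other effects: unfolded proteins release heat shock factor, which drives the chaperones, the factor NRF1 drives the proteasome's own subunit genes, NRF2 escapes degradation and drives antioxidant genes, and ATF4 drives the integrated stress response.

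Of the 13652 genes, 1157 (8.47%) were higher by 2-fold or more in differentiation medium and 824 (6.04%) were lower by 2-fold or more, that is, higher with BTZ. The other 11671 genes (85.5%) lay within 2-fold. The 8.47% and 6.04% are the shares of all genes to set beside each list's counts between these 2 arrays below. At a 4-fold difference the counts were 371 higher and 97 lower, and at 16-fold they were 52 and 3. Among named genes the far end of the comparison was thus mostly on the side of differentiation medium. Probe sets with no gene named went the other way at 2-fold, with 321 higher and 1280 lower of 8413 above the floor. The lower of the 2 arrays was under the floor for 233 of the higher and 100 of the lower genes, and folds of those genes are compressed by background. Of the genes above the floor, 814 had several probe sets, whose differences were 1 log2 unit or more apart in 107. The floor was applied to the gene's mean and not to each of these probe sets. The median difference over all genes was -0.03.

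**Figure D1:**
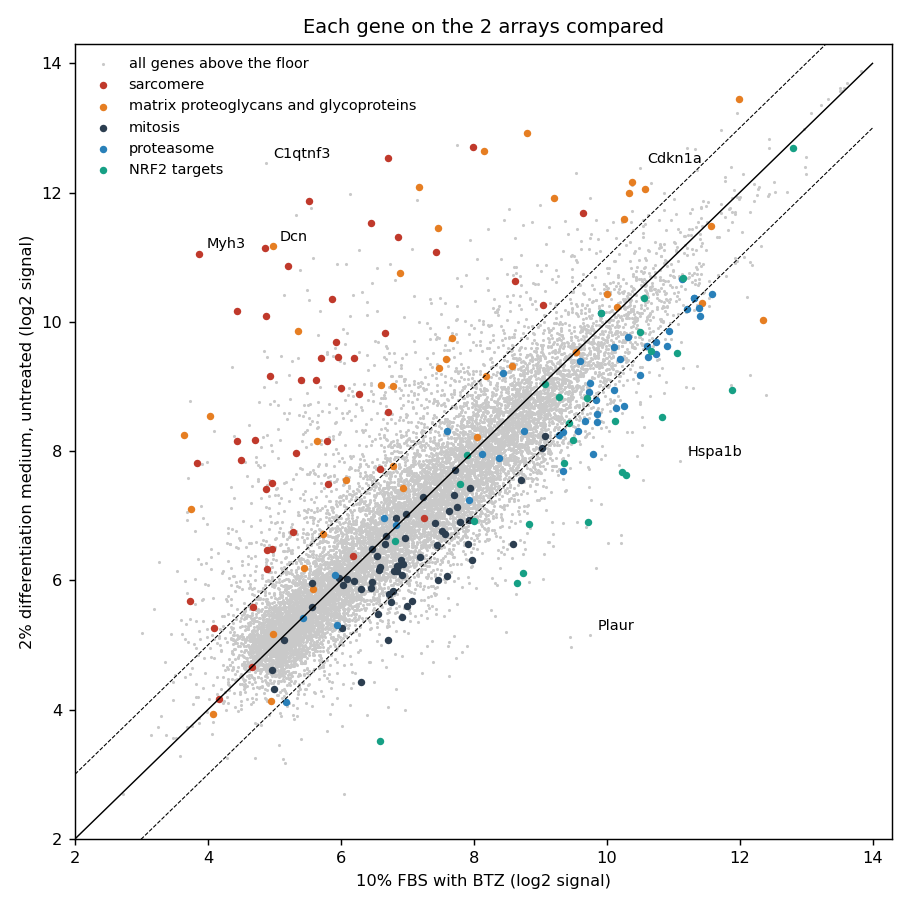
Log2 signal of each gene above the floor in 10% FBS with BTZ (x axis) against untreated 2% differentiation medium (y axis), with 5 gene lists coloured, equality as a solid line and 2-fold as dashed lines. Sarcomere and matrix genes lie mostly above the upper dashed line and proteasome and NRF2 genes mostly along or under the lower one. Mitosis genes lie mostly between equality and the lower line, with 8 of 59 above equality and 14 past the lower line, down to -2.02.

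Myh3, Hspa1b and Cdkn1a were given with the comparison as its markers. Myh3, the embryonic myosin heavy chain, read 4.38 in untreated growth medium, 3.62 with TNF-α and 3.86 with BTZ. In differentiation medium Myh3 read 11.05 untreated, 10.42 with TNF-α and 7.28 with BTZ. The first 3 values are under the floor, so the difference of 7.19 between the 2 arrays sets a clear signal against background.

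Hspa1b, a heat-inducible HSP70 chaperone, read 8.17 in untreated growth medium, 8.29 with TNF-α and 11.10 with BTZ, and 7.84, 8.38 and 11.25 in differentiation medium in the same order. It was high on the 2 BTZ arrays and low on the other 4, and its difference was -3.26. Cdkn1a, which encodes p21, read 9.06, 9.79 and 10.50 in growth medium and 12.38, 12.25 and 11.54 in differentiation medium, in the same order. It was lowest in untreated growth medium, intermediate with BTZ and highest in untreated differentiation medium. Its difference of 1.88 therefore separates 2 arrays that both lie above untreated growth medium.

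Low mitotic genes in both states were the premise of the comparison, and their values are given as a description. Against untreated growth medium, differentiation medium had 59 of 59 mitosis genes above the floor lower by 2-fold or more, beside 3.92% of all genes, and the BTZ array had 58 of 59, beside 6.16% of all genes. Both counts use the same untreated array and are not independent of each other. The median level of the list was 8.86 in untreated growth medium, 6.86 with BTZ and 6.22 in differentiation medium. Between the 2 arrays 0 of the 59 genes were higher and 14 were lower in differentiation medium, with a median difference of -0.64.

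Of genes within 0.5 log2 units between the 2 states, the 8 farthest below untreated growth medium were the linker histone H1f5, the kinetochore gene Nuf2, Birc5 (survivin), Ccna2 (cyclin A2), the spindle motor Kif11, the histone H2ac10, the mitotic kinase Plk1 and Anln (anillin, of the cytokinetic ring). Ccna2 read 10.87 in untreated growth medium, 7.72 with BTZ and 7.71 in differentiation medium. Plk1 read 9.71, 6.66 and 6.56 on the same arrays. Kif11 read 9.70, 6.57 and 6.16. All 3 were about equally low in both states, which is how they were chosen.

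The members that did separate the states were lower in differentiation medium. Tpx2, a spindle assembly factor, read 9.65 in untreated growth medium, 8.59 with BTZ and 6.57 in differentiation medium. Bub1, a spindle checkpoint kinase, read 8.96, 6.71 and 5.07. Cdc25c, the phosphatase that activates the mitotic CDK, read 7.46, 6.31 and 4.43, and Cenpe, a kinetochore motor, read 9.57, 7.97 and 6.32. In these 4 genes the order was the same, with BTZ between the other 2 arrays. The condensin subunit Smc4, the member with the highest mean level on the 2 arrays, read 9.07 with BTZ and 8.23 in differentiation medium.

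Many mitotic promoters are known to hold a CHR element, the site through which the DREAM complex represses them in resting cells. The letters TTTGAA or TTCGAA were searched on both strands of RefSeq promoter windows, which run from 250 bases before to 50 bases after a gene's start. At least 1 window held them in 36 of the 48 mitosis genes with a window (75.0%), against 16.2% of the 10658 genes above the floor with a window. The Kif11 promoter is shown as an example from the 8 genes named above as alike and low, not as the most alike of them. Plk1 was also looked at, and its only match began at base 281 of the 300-base window, past the start. Its 180 bases up to the start (GRCm38.p6, chr19:37376202-37376381, + strand) hold the element in capitals, beginning 19 bases before the start.
Kif11: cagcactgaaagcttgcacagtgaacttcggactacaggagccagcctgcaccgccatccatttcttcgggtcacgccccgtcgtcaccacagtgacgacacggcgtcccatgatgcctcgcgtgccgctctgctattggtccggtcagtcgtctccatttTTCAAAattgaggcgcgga

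Replication genes, which copy DNA in S phase, also lay mostly on the BTZ side. Of 52 above the floor, 2 were higher and 20 lower in differentiation medium, with a median difference of -0.78. Against untreated growth medium the list's median was -1.63 in differentiation medium and -0.74 with BTZ, where 42 and 19 of the 52 were at least 2-fold lower. Over all genes these shares were 3.92% and 6.16%. The replicative helicase had the lowest median of the list's groups, -1.35, with 10 of its 12 subunit and loading genes lower. Mcm3, a subunit of its ring, read 9.0 in untreated growth medium, 8.12 with BTZ and 6.43 in differentiation medium.

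The DNA polymerase and primase genes had a median difference of -1.23, with 5 of 7 lower. Prim1, the catalytic primase subunit, read 8.84, 7.81 and 6.25 on those 3 arrays, and Gins1, of the helicase's GINS complex, read 6.09, 5.74 and 4.21. In contrast, the 5 genes of nucleotide supply had a median of 0.35. Rrm1, the large subunit of ribonucleotide reductase, read 10.34, 9.02 and 9.58, so it was lower with BTZ. The 2 genes on the higher side were E2f2 and E2f8. E2f2 read 5.89, 5.60 and 7.22, and E2f8, an atypical E2F that represses S-phase genes and is named here after its values were seen, read 8.84, 5.92 and 7.42.

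Among 18 cell cycle inhibitors, 3 were higher and 0 were lower in differentiation medium, beside 8.47% and 6.04% of all genes. Their median difference was 0.55. The 3 higher genes were Gas1, Cdkn1a and Tob1. Gas1, a growth-arrest membrane protein, read 8.84 in untreated growth medium, 5.79 with BTZ and 9.50 in differentiation medium. It was thus low with BTZ rather than high in differentiation medium. Tob1, an antiproliferative protein, read 8.29, 7.66 and 9.13. Cdkn2d, a CDK4 inhibitor, read 7.71, 5.91 and 6.81, lower in both states than in untreated growth medium.

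The 14 G1 cyclins and kinases had a median difference of 0.01. Ccnd3, the D-type cyclin known to stay on in myotubes, read 7.96 in untreated growth medium, 6.45 with BTZ and 9.02 in differentiation medium, a difference of 2.57. Ccnd2 read 6.64, 5.98 and 7.18. Ccnd1, named here after its values were seen, read 10.08, 7.80 and 7.86, so it was low in both states to nearly the same level. Lin54, the DNA-binding subunit of the MuvB core that reads the CHR, read 8.12, 8.69 and 6.92. The D-type cyclins therefore split, with Ccnd1 alike and Ccnd3 apart.

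**Figure D2:**
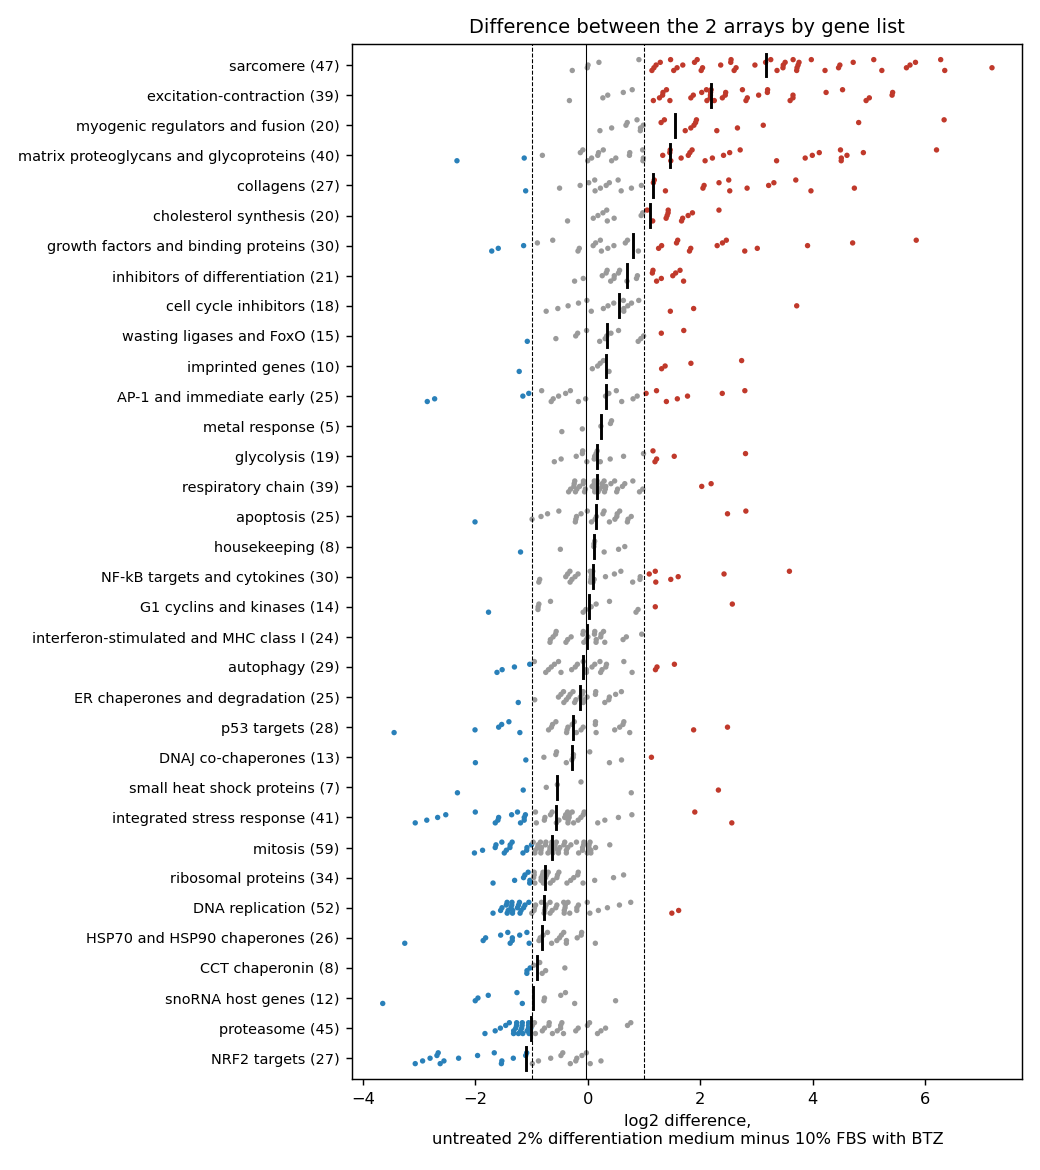
Log2 difference of each list member above the floor (points, red at least 2-fold higher and blue at least 2-fold lower in differentiation medium) with the list's median (black bar) and its number of members in parentheses; dashed lines mark 2-fold and the solid line the median of all genes. Medians run from 3.16 for the sarcomere to -1.11 for NRF2 targets.

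The contractile apparatus was the clearest mark of differentiation medium. Of 47 sarcomere genes above the floor, 42 were higher and 0 were lower, with a median difference of 3.16. The median level of the list was 5.27 in untreated growth medium, 5.52 with BTZ and 8.97 in differentiation medium. The first 2 medians were close to each other but also near the floor of 5.06. The myosin heavy chains had medians of 4.39 and 4.26 on those 2 arrays, under the floor. For members at background, alike readings cannot show whether their levels differed between the 2 growth-medium arrays. Against untreated growth medium differentiation medium had 40 of the 47 higher by 2-fold or more, beside 4.83% of all genes, and the BTZ array had 2 of 47, beside 4.99%. Troponins were higher in 7 of 7 genes, with a median of 3.65.

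Ttn (titin, the giant elastic protein of the sarcomere) read 5.66 in untreated growth medium, 5.52 with BTZ, 11.87 in differentiation medium and 11.08 in differentiation medium with BTZ. Mylpf, a fast-muscle myosin light chain, read 5.02, 4.86, 11.14 and 7.49 on the same 4 arrays. Acta1, skeletal actin, read 7.27, 6.71, 12.54 and 11.51. In the last of the 4 arrays, which combines both treatments, Ttn and Acta1 were closer to untreated differentiation medium and Mylpf was closer to BTZ in growth medium. Myh1, Neb (nebulin), Myom2 (of the M-band) and Pdlim3 (of the Z-disc) were also among the 15 highest, with differences of 5.73, 5.67, 5.23 and 6.20. Probes for Myh1 and Myh3 could cross-react, since the myosin heavy chain genes are close copies.

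Excitation-contraction genes, which couple nerve signal to calcium release, were higher in 34 of 39 and lower in 0, with a median of 2.19. Casq2, the cardiac and slow-muscle calsequestrin of the calcium store, read 5.09 in untreated growth medium, 5.38 with BTZ, 10.80 in differentiation medium and 9.18 there with BTZ. Chrng, the embryonic subunit of the acetylcholine receptor, read 5.25, 5.58, 10.99 and 5.71. The 2 genes had the same difference to within 0.1 log2 units and parted on the array with both treatments. Srl (sarcalumenin) and Trdn (triadin), both of the sarcoplasmic reticulum, differed by 5.01 and 4.95.

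Myogenic regulators and fusion genes were higher in 12 of 20 and lower in 0, with a median of 1.55. Mymk, the membrane activator of myoblast fusion, read 5.56, 5.32, 11.65 and 7.64 on the 4 arrays in the same order. Myog, which encodes myogenin, read 6.71, 6.08, 10.90 and 6.93. Neither was higher with BTZ than in untreated growth medium. Cdh15 (M-cadherin) read 7.94, 6.56, 9.68 and 7.44, and Itga7, the laminin receptor of muscle, read 9.01, 8.88, 11.54 and 10.40.

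The labelled cell type was set against Myod1 and Myf5, muscle factors known from the myoblast line and taken as its markers with earlier results of these data known. Myod1 read 8.12 in untreated growth medium, 7.44 with BTZ and 9.73 in differentiation medium. Myf5 read 8.78, 6.94 and 7.88. Both were above the floor on all 3 arrays. Des (desmin) read 10.77, 9.65 and 11.69.

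Muscle promoters are known for E-boxes and MEF2 sites, and the letters CAGCTG and the MEF2 site were searched on both strands of the same windows. The E-box was in 43.2% of sarcomere and 51.9% of excitation-contraction genes with a window, against 18.4% of all genes above the floor with one. Among myogenic regulators and fusion genes with a window it was in 1 of 12 (8.33%), under the share of all genes. It was in 26.9% of genes higher and 15.8% of genes lower in differentiation medium. The MEF2 site was in 24.3% of sarcomere genes, against 2.27% of all. Chrng and Casq2 are shown because they were among the 15 highest and hold, in capitals, the E-box 155 and 132 bases before the start (Chrng, GRCm38.p6, chr1:87205631-87205810, + strand) and a MEF2 site 69 bases before it (Casq2, chr3:102086235-102086414, + strand). The Myh3 window held neither set of letters.
Chrng: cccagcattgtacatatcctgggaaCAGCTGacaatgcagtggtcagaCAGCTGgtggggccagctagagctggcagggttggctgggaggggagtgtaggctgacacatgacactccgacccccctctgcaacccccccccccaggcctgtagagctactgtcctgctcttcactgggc
Casq2: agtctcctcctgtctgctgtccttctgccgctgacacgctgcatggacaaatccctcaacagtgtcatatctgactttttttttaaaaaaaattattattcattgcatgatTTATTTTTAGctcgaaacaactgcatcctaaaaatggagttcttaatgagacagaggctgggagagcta

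Known inhibitors of muscle differentiation were not higher with BTZ. Of 21 above the floor, 8 were higher in differentiation medium and 0 lower, with a median of 0.69. Hey1 and Hes1 are Notch targets that repress myogenic genes. Hey1 read 6.76 in untreated growth medium, 5.36 with BTZ and 7.06 in differentiation medium, and Hes1 read 8.82, 6.89 and 8.53. Bhlhe40 read 9.94, 9.48 and 11.04 on the same arrays, and the receptor Notch3 read 6.53, 6.29 and 7.80. The 4 Id genes, whose proteins block MyoD, had a median difference of 0.09. On each array 2 of the 4 were at least 2-fold lower than in untreated growth medium. Over all genes these shares were 6.16% with BTZ and 3.92% in differentiation medium. The median levels of the Id genes were 8.74 in untreated growth medium, 7.15 with BTZ and 7.66 in differentiation medium.

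**Figure D3:**
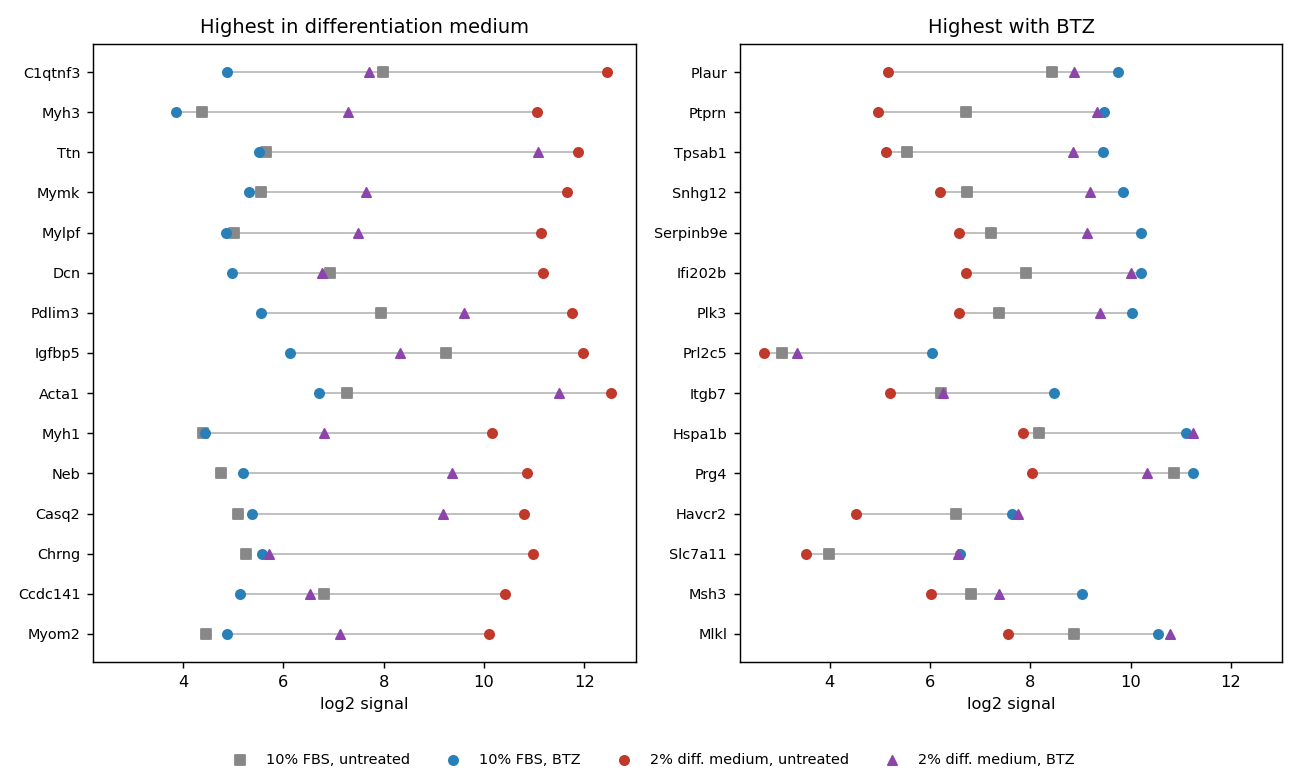
Log2 signal of the 15 genes highest (left) and the 15 lowest (right) in untreated differentiation medium relative to BTZ in 10% FBS, on 4 arrays, with the grey line joining the 2 arrays compared. The array with both treatments (triangles) lies near the BTZ array for Chrng and for Hspa1b, and near untreated differentiation medium for Ttn and Acta1.

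Secreted and matrix genes separated the states in a different way. Of 27 collagen and collagen-processing genes, 14 were higher and 1 was lower in differentiation medium, with a median of 1.16. Of 40 other matrix genes, 23 were higher and 2 lower, with a median of 1.47. The median level of the matrix list was 8.97 in untreated growth medium, 7.47 with BTZ and 9.48 in differentiation medium, so much of this separation was a low level with BTZ.

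Col1a2, a chain of type I collagen, read 9.97 in untreated growth medium, 5.90 with BTZ and 9.60 in differentiation medium. Col1a1, its partner chain, read 10.07, 7.10 and 10.41, and Col8a1 read 8.08, 5.21 and 9.18. These 3 genes were low on the BTZ array alone of the 3. Col3a1 read 10.73, 7.15 and 11.89, and Lox, the collagen cross-linker, read 12.01, 9.14 and 11.47.

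Dcn (decorin, a collagen-binding proteoglycan) read 6.92, 4.97 and 11.17, and Postn (periostin) read 9.50, 7.18 and 12.08. Both were below untreated growth medium with BTZ and above it in differentiation medium. Cilp read 4.45, 3.65 and 8.25, the first 2 under the floor, and the aggrecan-cleaving protease Adamts5 read 8.95, 5.35 and 9.86. C1qtnf3, a secreted C1q and TNF related protein, had the highest difference of the named genes, 7.59, and read 7.98, 4.87 and 12.46. Nid1 (nidogen, of basement membranes), named after its values were seen as 1 of the 2 lower matrix genes, went the other way, at 11.11, 12.35 and 10.02.

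Growth factors and their binding proteins were higher in 14 and lower in 3 of 30, with a median of 0.80. Igfbp5, an IGF-binding protein known to rise in differentiating myoblasts, read 9.25 in untreated growth medium, 6.14 with BTZ and 11.98 in differentiation medium. Igf1 read 6.59, 4.85 and 9.56. Fst (follistatin, which binds myostatin and activin) read 7.43, 6.40 and 10.31, while Inhba, an activin subunit named after its values were seen, read 7.87, 8.53 and 6.82. The activin gene and its antagonist thus lay on opposite sides.

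Cholesterol synthesis genes, which sterol-regulated SREBP2 drives, were higher in 11 of 20 and lower in 0, with a median of 1.10. Hmgcs1, an early enzyme of the pathway, read 11.31 in untreated growth medium, 8.70 with BTZ and 11.03 in differentiation medium. Fdft1 read 10.52, 8.70 and 10.56, and the SREBP retention gene Insig1 read 10.56, 8.78 and 10.46. The untreated growth medium and differentiation medium readings were within 0.5 log2 units in all 3 genes, and the BTZ reading was the low one. Against untreated growth medium 12 of the 20 were at least 2-fold lower with BTZ and 0 were in differentiation medium. Over all genes these shares were 6.16% and 3.92%.

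Named genes on the BTZ side reached smaller differences than those on the other. Plaur, the urokinase receptor, had the lowest difference, -4.60, and read 8.44 in untreated growth medium, 9.75 with BTZ, 5.15 in differentiation medium and 8.87 there with BTZ. Relative to untreated growth medium it stood at 1.32 with BTZ and -3.28 in differentiation medium. Most of its difference was thus a low level in differentiation medium. Ptprn, a receptor-type phosphatase of secretory granules, read 6.72, 9.46, 4.96 and 9.33, and Tpsab1, a mast cell tryptase, read 5.53, 9.44, 5.13 and 8.84. Each was higher with BTZ in both media. Plk3, a stress-responsive polo-like kinase, read 7.37, 10.03, 6.58 and 9.39, and Mlkl, the executor of necroptosis, read 8.87, 10.54, 7.55 and 10.79.

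Prg4 (lubricin) read 10.86 in untreated growth medium, 11.24 with BTZ and 8.04 in differentiation medium, so its difference of -3.20 was a low level in differentiation medium. Msh3, a mismatch repair gene, read 6.82, 9.04 and 6.02, and the integrin Itgb7 read 6.22, 8.48 and 5.20. Serpinb9e, Ifi202b and Prl2c5 belong to families of close copies whose probes could cross-react, and differed by -3.64, -3.51 and -3.35. Havcr2 (TIM-3, a receptor best known on T cells) differed by -3.12.

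HSP70 and HSP90 chaperones with their cofactors were lower in differentiation medium in 11 of 26 genes and higher in 0, with a median of -0.82. The HSP70 genes themselves were lower in 5 of 9. Hsph1, an HSP110 exchange factor for HSP70, read 9.35 in untreated growth medium, 11.15 with BTZ, 9.29 in differentiation medium and 12.06 there with BTZ. Hspa1a, a near-identical copy of Hspa1b whose signal may be shared with it, read 6.02, 7.58, 6.03 and 8.49. For these 2 genes both untreated arrays were alike and both BTZ arrays high. Hspd1, the mitochondrial chaperonin, read 10.36, 10.89, 9.07 and 11.10, so its difference came with a low reading in untreated differentiation medium.

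Cryab, a small heat shock protein (αB-crystallin), read 8.17, 11.30, 8.98 and 11.48 on the 4 arrays, while Hspb7, a small heat shock protein of muscle, read 5.45, 5.00, 7.32 and 6.25. Of the 7 small heat shock proteins 2 were lower and 1 was higher, beside 6.04% and 8.47% of all genes. Dnajb1, the HSP40 partner of HSP70, read 8.92, 10.53, 8.53 and 11.31. The CCT chaperonin, which folds actin and tubulin, was lower in 3 of 8 genes, and 8 of 8 had a difference below 0, with a median of -0.91. Its member Cct2 read 11.37, 11.94, 10.91 and 11.78.

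Heat shock factor binds inverted GAA units, and the letters GAANNTTC or TTCNNGAA were searched on both strands. They were in 45.0% of the HSP70 and HSP90 list's genes with a window, against 13.7% of all, and in 15.8% of genes lower and 11.7% of genes higher in differentiation medium. Hspa1b is shown as the chaperone gene with the largest separation, with its match 104 bases before the start in capitals (GRCm38.p6, chr17:34959239-34959418, - strand).
Hspa1b: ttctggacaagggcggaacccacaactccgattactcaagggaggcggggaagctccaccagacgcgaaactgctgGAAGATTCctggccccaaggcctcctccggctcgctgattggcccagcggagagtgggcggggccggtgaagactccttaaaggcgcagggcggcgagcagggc

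Proteasome genes were lower in differentiation medium in 23 of 45 and higher in 0, with a median of -1.01. Their median level was 8.97 in untreated growth medium, 9.85 with BTZ, 8.92 in differentiation medium and 9.92 there with BTZ, so the 2 untreated arrays were alike. Against untreated growth medium 10 of the 45 were at least 2-fold higher with BTZ, beside 4.99% of all genes. Within differentiation medium 25 of the 45 were at least 2-fold higher with BTZ, where 6.05% of all genes were.

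Core and cap subunits had close medians, and the assembly genes lay apart from them. The 20S alpha, 20S beta, ATPase and remaining 19S genes had median differences of -1.07, -1.01, -1.16 and -1.06. The 8 assembly chaperones had a median of -0.09. Psma1 (20S alpha) read 8.95 in untreated growth medium, 9.79 with BTZ and 7.96 in differentiation medium. Psmd4, the cap's ubiquitin receptor, read 8.63, 10.26 and 8.70, and Psmc6, a cap ATPase, read 10.54, 11.59 and 10.43. The gene for NRF1, Nfe2l1, named after its values were seen, read 8.23, 8.44 and 9.20, so its RNA was not higher with BTZ than in differentiation medium.

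NRF2 targets had the lowest median of the lists with 5 or more members above the floor, -1.11, with 15 of 27 lower in differentiation medium and 0 higher. Blvrb (biliverdin reductase B) read 7.25 in untreated growth medium, 9.71 with BTZ and 6.90 in differentiation medium. Gsta4, a glutathione transferase, read 11.16, 11.89 and 8.95, and Nqo1, a quinone reductase, read 9.52, 8.65 and 5.97. Blvrb was high with BTZ, whereas Gsta4 and Nqo1 were low in differentiation medium, and Nqo1 was below untreated growth medium on both. Against untreated growth medium 6 of the 27 were at least 2-fold higher with BTZ and 8 were at least 2-fold lower in differentiation medium. Over all genes these shares were 4.99% and 3.92%. The letters TGACNNNGC, a form of the NRF2 element, were in 40.9% of the list's genes with a window and in 16.4% of all. They were in 16.1% of genes lower and 16.3% of genes higher in differentiation medium, close to the share of all genes. Some other lists were also above that share, such as integrated stress response at 31.4% and growth factors at 33.3%.

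Integrated stress response genes were lower in 14 and higher in 2 of 41, with a median of -0.56. Ppp1r15a (GADD34, which ends the response) read 6.60 in untreated growth medium, 9.20 with BTZ, 6.52 in differentiation medium and 9.26 there with BTZ. Aldh1l2, a mitochondrial folate enzyme, read 8.18, 9.68, 6.82 and 9.84. Atf3 and Ddit3 (CHOP), stress transcription factors named for their roles after their values were seen, differed by -2.53 and -2.0, and the master factor gene Atf4 by -0.77.

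The 2 genes on the higher side were Fgf21, a secreted hormone known as an ATF4 target, and the lipoprotein receptor Vldlr, named after its values were seen, with differences of 2.56 and 1.90. Fgf21 read 5.58, 4.94, 7.5 and 5.54 on the 4 arrays, lowest in growth medium with BTZ. Slc7a11, the cystine transporter and also an NRF2 target, read 3.99, 6.59, 3.52 and 6.56. Its 2 probe sets differed by -4.94 and -1.21, so its difference of -3.07 is uncertain in size. The ATF4 element, searched as TGATGNAA, was in 34.3% of the list's genes with a window and in 2.9% of all. Slc7a11 is shown because it was among the 15 lowest genes and holds the element at 2 places, in capitals, 66 and 47 bases before the start (GRCm38.p6, chr3:50443614-50443793, - strand).
Slc7a11: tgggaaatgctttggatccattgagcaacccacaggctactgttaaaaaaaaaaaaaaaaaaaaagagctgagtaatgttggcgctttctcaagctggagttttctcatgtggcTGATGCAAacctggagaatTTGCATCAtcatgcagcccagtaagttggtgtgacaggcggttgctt

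**Figure D4:**
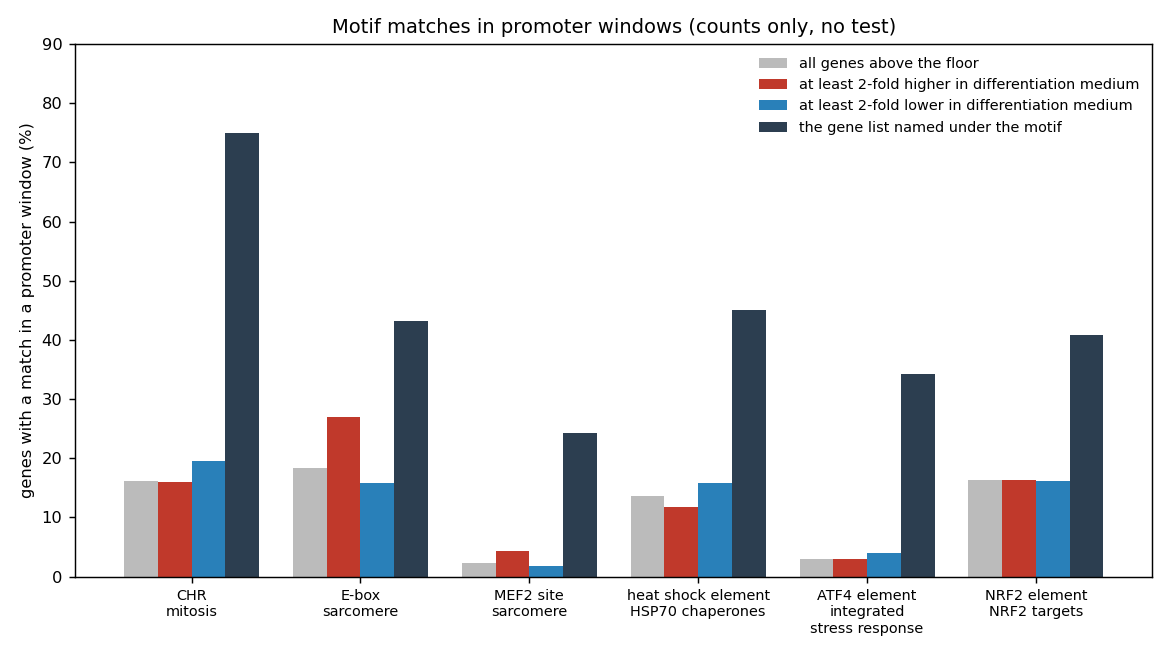
Share of genes with a promoter window that hold a motif (y axis, percent), for all genes above the floor, genes past 2-fold in each direction, and the gene list named under each motif. Each named list lies above all genes, and among genes past 2-fold the widest gap to all genes is that of the E-box, at 26.9% against 18.4%.

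These motif matches are a known property of the gene classes and a description of letters, with no test. A gene with several windows was counted once, where any of them held the letters.

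Endoplasmic reticulum chaperones and degradation genes barely separated the states, with 1 of 25 lower, 0 higher and a median of -0.13. The exception was Hspa5 (BiP), the main chaperone of that compartment, at 10.16 in untreated growth medium, 10.97 with BTZ and 9.73 in differentiation medium. Of 29 autophagy genes 3 were higher and 4 were lower, with a median of -0.08, beside 8.47% and 6.04% of all genes. Gabarapl1, an ATG8 family member, read 8.45, 9.99 and 8.37 and Sqstm1 (p62, the cargo receptor) read 11.01, 12.18 and 10.88, whereas Map1lc3a read 6.32, 6.08 and 7.61.

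Targets of p53 were lower in 6 and higher in 2 of 28, beside 6.04% and 8.47% of all genes. The 2 higher ones were Fas and Cdkn1a. Fas, a death receptor, read 6.63 in untreated growth medium, 5.70 with BTZ and 8.18 in differentiation medium. Tnfrsf10b, the TRAIL death receptor, read 8.55, 10.30 and 8.29, and Mdm2, which degrades p53 and is named after its values were seen, read 8.76, 10.63 and 9.22. The list's best-known member in cycle exit, Cdkn1a, therefore lay opposite to most of the members past 2-fold. Genes that were alike and above untreated growth medium on both arrays included the p53 targets Pmaip1 (NOXA), at 5.86, 7.26 and 7.14, and Trp53inp1, at 6.76, 8.38 and 8.10.

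The other genes of that alike group were Casp4, Dtna, Flnc, Tec, Wdpcp and Crebrf. Flnc, the muscle filamin that is remodelled when sarcomeres are damaged, read 9.25 in untreated growth medium, 10.96 with BTZ, 10.72 in differentiation medium and 12.05 there with BTZ. Casp4 (caspase-11), an inflammatory caspase, read 5.67, 7.66, 7.79 and 9.27. Of these 4 arrays both genes were highest on the one with both treatments. In the apoptosis list 2 of 25 genes were higher and 1 was lower, close to the 8.47% and 6.04% of all genes. The largest difference in that list was that of Casp12, at 6.45, 5.64 and 8.45 on the first 3 of those arrays.

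Immediate early genes divided by member, with 7 higher and 4 lower of 25, beside 8.47% and 6.04% of all genes. Fos, an AP-1 subunit, read 7.52 in untreated growth medium, 5.82 with BTZ and 8.61 in differentiation medium, and the zinc finger factor Egr1 read 9.38, 6.90 and 9.29. The early gene Ier3 read 9.61, 11.87 and 9.02 and the MAP kinase phosphatase Dusp4 read 8.46, 9.91 and 7.19. Fos and Egr1 were thus low with BTZ, and Ier3 and Dusp4 high.

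SnoRNA host genes were lower in 6 of 12 and higher in 0, with a median of -0.97. Snhg12 read 6.74 in untreated growth medium, 9.84 with BTZ and 6.19 in differentiation medium, and Snhg15 read 6.48, 8.49 and 6.49. Ribosomal protein genes, by comparison, were lower in 7 of 34 and higher in 0, with a median of -0.77. The probe sets of Zfas1, a member of the host list, differed by -3.19 and -0.35.

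Of 15 muscle wasting ligases and FoxO factors 2 were higher and 1 was lower, beside 8.47% and 6.04% of all genes. The 2 were the muscle ligases Fbxo32 and Trim63. Fbxo32 (atrogin-1) read 7.53, 7.25 and 8.95 and Trim63 (MuRF1) read 4.91, 5.43 and 6.73 in untreated growth medium, BTZ and differentiation medium. Of 19 glycolysis genes 5 were higher, and of 39 respiratory chain genes 2 were, with 0 lower in either list. Beside the same shares of all genes, only the glycolysis list lay above the 8.47% on the higher side. The higher ones include muscle isoforms, such as Eno3 at 11.46, 9.0 and 11.81 and Pgam2 at 4.92, 4.54 and 6.08 in glycolysis. In the respiratory chain they were Cox8b, at 4.12, 4.65 and 6.84, and Cox6a2, at 5.41, 5.78 and 7.80.

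The remaining lists concern other programs. Interferon-stimulated and MHC class I genes had 0 of 24 past 2-fold in each direction. Among NF-kB targets and cytokines 7 of 30 were higher and 0 lower, beside 8.47% and 6.04% of all genes. The largest difference was that of the chemokine Cxcl12, at 8.60, 6.07 and 9.65 in untreated growth medium, BTZ and differentiation medium. Imprinted genes, for which Peg3 read 9.49, 7.81 and 10.55, were higher in 4 and lower in 1 of 10, beside the same shares. Metal response genes had 0 of 5 past 2-fold. Of 8 housekeeping genes 1 was lower, beside 6.04% of all genes. It was Hprt, at 10.04, 10.42 and 9.22.

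Markers of other cell types differed in how many reached the floor. Above it were 5 of 8 adipocyte, 2 of 6 osteoblast, 2 of 7 leukocyte and 1 of 6 endothelial markers measured, and 6 of 6 smooth muscle markers. Of all genes measured, 13652 of 22180 were above it, a share close to that of the adipocyte markers. The leukocyte marker Cd68, a lysosomal protein also made outside leukocytes, read 6.57 in untreated growth medium, 7.74 with BTZ and 5.63 in differentiation medium. Of the 6 smooth muscle markers 1 was higher and 1 was lower in differentiation medium, beside 8.47% and 6.04% of all genes. The higher one was Acta2, smooth muscle actin, which immature muscle cells also make, at 12.64, 11.96 and 13.24. The lower one was Cnn1, at 6.41, 5.43 and 4.41.

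**Figure D5:**
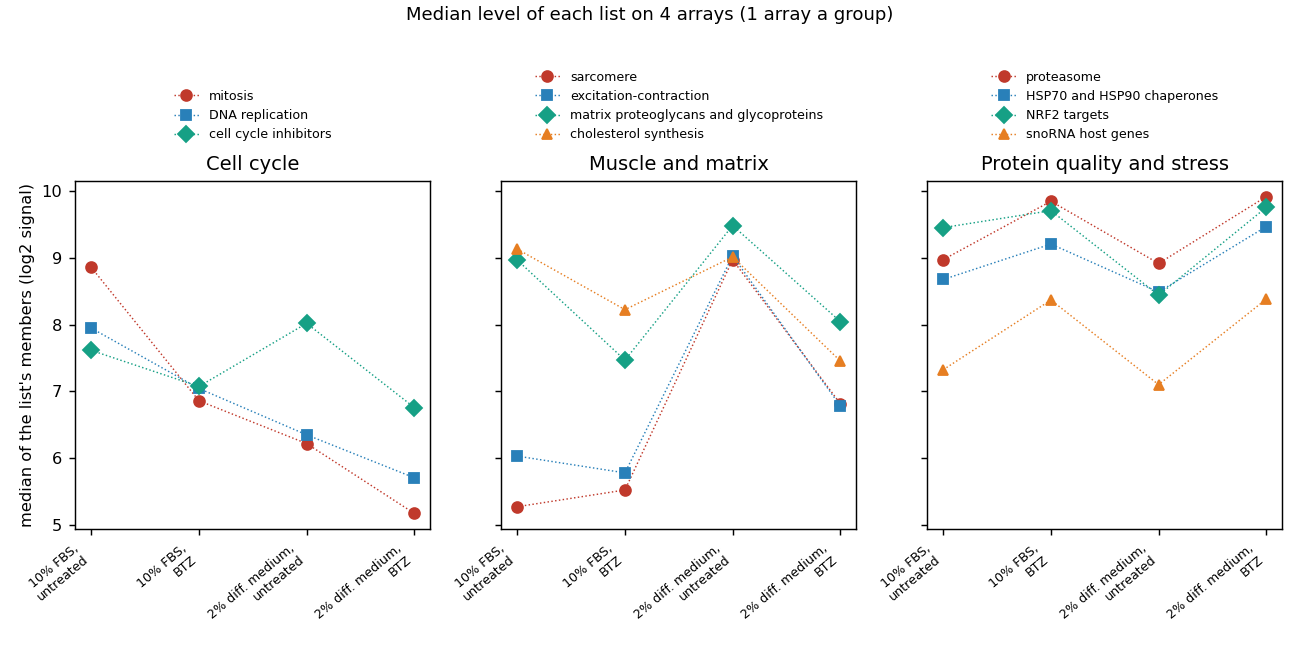
Median log2 signal of the members of 11 lists on 4 arrays, with dotted lines only joining the points of a list. Mitosis and replication are low on the other 3 arrays relative to untreated growth medium, sarcomere and excitation-contraction are high on untreated differentiation medium, and proteasome, chaperone and snoRNA host genes are high on both BTZ arrays.

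The arrays outside the comparison show on which side each difference lay. Of the 1157 genes higher in differentiation medium, untreated growth medium was within 2-fold of the BTZ array alone for 398 (34.4%), of the differentiation array alone for 314 (27.1%) and of both for 330 (28.5%). For 100 (8.64%) it lay between, 2-fold or more from each. So a sizeable group of these genes was low with BTZ rather than high in differentiation medium. Of the 824 lower genes, untreated growth medium was within 2-fold of the differentiation array alone for 362 (43.9%), of the BTZ array alone for 124 (15%) and of both for 278 (33.7%). For 37 (4.49%) it was at least 2-fold above both arrays.

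The array with both treatments, BTZ in differentiation medium, mostly lay with BTZ. Against untreated differentiation medium 8.91% of all genes were at least 2-fold lower there, and the 47 sarcomere genes held 36 such genes. Of the 1157 genes higher in differentiation medium, that array was within 2-fold of BTZ in growth medium alone for 760 (65.7%), of untreated differentiation medium alone for 58 (5.01%) and of both for 248 (21.4%). Of the 824 lower genes the counts were 490 (59.5%), 86 (10.4%) and 223 (27.1%). The mitosis list was lower still on it, with a median level of 5.17, and the sarcomere list was between, at 6.81. These positions use the same 2 arrays that define the gene groups and are a description.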

How the data were processed

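RNA from 6 C2C12 cultures was hybridised to Affymetrix whole-transcript arrays, 1 per group. The deposited values were used as the authors gave them, 1 value per probe set and array, between 1.66 and 14.1, and were read as log2 signals because of that range. How the authors corrected background, normalized and summarized is "not given in the sources used here"; detection calls were not used. Of 41345 probe sets, 23521 had 1 gene symbol in the platform annotation, 1814 had several and 16010 were unnamed here. Single-symbol probe sets were averaged per gene. It was used where its highest array reached the floor, the median of all values (5.06), so a gene could pass through 1 array alone. The values were then differences of 2 arrays on the log2 scale, and past 2-fold was the call. The number of arrays limits the precision, and no test was possible.

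The comparison, the members and the 39 gene lists were chosen with earlier results of these data known, so counts over lists are descriptions. List symbols matched for 942 members and 11 more through RefSeq synonyms; 86 were not matched. Named genes were the 15 highest and 15 lowest (leaving out receptor families, small RNAs and predicted genes) and the 3 markers. The 4 list members with the largest difference and the member with the highest mean were also named. So were, of genes within 0.5 log2 units between the 2 arrays, the 8 on each side farthest from untreated growth medium. Others are said to be chosen after their values were seen. Promoter windows came from RefSeq (GRCm38.p6), 300 bases each, for 10658 genes. Alternatives were other scalings, floors and probe set rules and an additive fit of medium and treatment on 6 arrays. The calculation was tested on simulated data. Python 3.11.15, numpy 2.4.6, pandas 2.3.3 and matplotlib 3.10.9 were used.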

Additional observations from a re-analysis of the deposited data

Results flagged for a closer look

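Among the 8413 probe sets above the floor with no gene named in the annotation used here, 19.03% were past 2-fold between the 2 arrays, against 14.5% of named genes. Of these, 321 were higher in differentiation medium and 1280 were higher with BTZ, the opposite balance to that of named genes. They stand out because no count of named genes and no gene list above includes them. What they measure is not given in the sources used here.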

How the results depend on the processing

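No paired analysis was possible because each group had 1 array. The main counts were 1157 genes higher and 824 lower in differentiation medium. They were 1232 and 729 with array medians made equal, 1310 and 682 with quantile normalization, 1194 and 854 with no floor, 1085 and 777 with the floor 1 log2 unit higher, 1152 and 821 with the floor on the 2 arrays compared, 1181 and 845 with the highest probe set of a gene, and 1304 and 959 with the additive fit. Of the 98 values of the 2 counts and 12 list medians under these 7 alternatives, 96 stayed within 1.5 times the count or 0.3 log2 units of the median. The other 2 came with no floor, which adds members near background: the sarcomere median was 2.64 in place of 3.16 and the collagen median 0.86 in place of 1.16. No list median past 0.3 changed sign. Of 135 named genes past 2-fold, 131 stayed past it with quantile normalization, 133 with shifted medians, 134 with the highest probe set and 135 in the additive fit. Of all 201 named genes, 44 moved by over 0.3 log2 units in the additive fit and 6 with the highest probe set, and 194 kept their sign in the additive fit. Values near the floor of 5.06, such as those of Myh3 in growth medium, set only a lower limit to a fold.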
